A study of Mus musculus with 4 samples.

Results

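The mesothelium is the single layer of flat cells that covers the organs and fat pads of the body cavities, and 9 genes used as its markers were read in the epididymal fat pad of mice. The genes are Upk3b, Upk1b, Msln, Muc16, Lrrn4, Gpm6a, Wt1, Bnc1 and Slurp1, taken by symbol from a table of 39179 genes. They were chosen as mesothelium markers that were already seen to differ between the 2 knockout libraries, so their levels are given as a description and carry no test. RNA was sequenced from the fat pad attached to the epididymis. There were 2 libraries labelled WT and 2 labelled Nck2 mutant, with KO in their titles, all on a mixed genetic background. Nck2 encodes an adaptor protein that links activated receptors to the actin cytoskeleton. The labels give no age, do not say which part of the gene was altered, and do not say whether each library is a different animal. Any spread or p-value therefore refers to these samples and may be technical.

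Mesothelial cells make a smooth, lubricated surface and secrete fluid, hyaluronan and matrix. They are epithelium-like, with keratins and apical membrane glycoproteins, but arise from mesoderm and carry the transcription factor Wt1. In visceral fat they lie on the outside of the pad, and Wt1 also marks a part of the progenitor cells beneath them. The surface proteins among the 9 include Upk3b and Upk1b, members of the uroplakin family known from the bladder lining. Also at the surface are Msln (mesothelin), a lipid-anchored glycoprotein, and Muc16, the large mucin to which mesothelin binds. Lrrn4 encodes a leucine-rich repeat membrane protein and Gpm6a a proteolipid-family membrane glycoprotein best known from neurons. Wt1 and Bnc1 (basonuclin 1) are zinc-finger transcription factors, and Slurp1 encodes a small secreted protein of the Ly6 family.

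The 9 genes varied together, and their order of libraries cut across genotype. KO replicate 1 had the highest level of the 4 libraries for 9 of 9 genes, as it did for 20.1% of all genes tested, which do not include Slurp1. KO replicate 2 was the lowest for 4 of the 9 and lay at or between the WT libraries for the others. Of all genes tested, 2.79% had KO replicate 1 highest and KO replicate 2 lowest. The genes were chosen on these levels. Their promoters are shown first as a description of sequence, and any part of promoters in the shared pattern was not tested. RefSeq windows on build GRCm38.p6, from 250 bases before to 50 bases after a gene's start, matched 5 of the 9 genes (Upk3b, Lrrn4, Bnc1, Muc16 and Gpm6a, the last with 2 starts). The windows of Upk3b (chr5:136038246-136038545, plus strand), Lrrn4 (chr2:132880813-132881112, minus strand) and Bnc1 (chr7:81992250-81992549, minus strand) are printed because these genes lay close to the shared library profile. Capitals mark matches on either strand to GGAATG, a core of the TEAD factors' motif, or to GNGTGGGNG, a form of the WT1 and EGR motif.
Upk3b: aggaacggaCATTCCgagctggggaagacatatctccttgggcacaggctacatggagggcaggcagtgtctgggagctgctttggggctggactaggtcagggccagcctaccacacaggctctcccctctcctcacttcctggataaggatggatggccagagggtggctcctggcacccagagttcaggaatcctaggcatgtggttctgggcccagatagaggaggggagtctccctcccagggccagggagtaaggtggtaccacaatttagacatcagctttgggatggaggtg
Lrrn4: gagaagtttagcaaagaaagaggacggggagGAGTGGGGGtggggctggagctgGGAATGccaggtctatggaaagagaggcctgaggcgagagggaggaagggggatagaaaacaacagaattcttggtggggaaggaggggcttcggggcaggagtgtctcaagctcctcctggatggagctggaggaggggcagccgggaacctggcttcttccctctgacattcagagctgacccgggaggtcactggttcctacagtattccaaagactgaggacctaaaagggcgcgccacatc
Bnc1: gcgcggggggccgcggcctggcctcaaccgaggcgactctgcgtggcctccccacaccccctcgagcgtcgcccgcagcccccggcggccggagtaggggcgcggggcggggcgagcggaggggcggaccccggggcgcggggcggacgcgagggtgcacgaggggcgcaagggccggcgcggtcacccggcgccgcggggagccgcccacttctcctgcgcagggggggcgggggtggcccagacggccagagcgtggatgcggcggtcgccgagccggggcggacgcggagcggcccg
The Upk3b window held 1 match to GGAATG, on the opposite strand, and the Lrrn4 window held 1 match to each motif. The Bnc1 window held no match to either, and neither did that of Muc16. Of the windows of Gpm6a, 1 had a match to GGAATG (chr8:54779184-54779483). Both Gpm6a windows lie before the gene's span in GENCODE M21, which starts at chr8:54954843. The ends of these windows and of the Muc16 window were not found in that annotation's transcripts of these genes. Among 32851 promoter windows of the same length, 14.7% held GGAATG and 14.3% held GNGTGGGNG. The windows differed in composition, with 83.3% G and C and 50 CpG sites in Bnc1 against 58.7% and 2 in Upk3b (median of all windows 52.7% and 7). A match is a description of letters and not a binding site.

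The libraries held between 31831904 and 37980391 reads assigned to genes. Values below are normalized counts, which are reads divided by a size factor per library, and 1 read is worth between 0.93 and 1.12 of them. The targeted gene Nck2 was at 1279 and 1667 in the WT pair and 1076 and 947 in the KO pair, so the groups did not overlap, but a total over its exons does not check the genotype. Adipocyte genes were present in every library, with a summed level over 12 genes of 754531 and 509591 in WT and 1827650 and 2105430 in KO. The WT libraries also held epididymis and other male tract transcripts, whose 15 listed genes summed to 1126640 and 1407170 in WT against 473 and 344 in KO. In whole-tissue RNA, fewer mesothelial cells and less mesothelial RNA per cell cannot be told apart.

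Upk3b was the most abundant per length of transcript among the 8 genes with a known length. It was at 2271 and 4040 in WT replicates 1 and 2, and at 8866 and 1642 in KO replicates 1 and 2. The KO libraries thus lay on either side of both WT libraries, and KO replicate 1 was 5.40 times KO replicate 2, with an exact 95% interval of 5.11 to 5.71. This interval and those below cover counting error alone. The group values were 3155 ± 1251 in WT and 5254 ± 5107 in KO (SD, n = 2). Upk1b was at 497 and 788 in the WT pair and 1645 and 351 in the KO pair, a ratio of 4.68 between the KO libraries (4.15 to 5.29). It had the same order of libraries as Upk3b, from KO replicate 2 through WT replicate 1 and WT replicate 2 to KO replicate 1.

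Msln had the widest gap between the KO libraries among the genes with reads in all 4. It was at 485 and 845 in the WT pair and 4519 and 709 in the KO pair, a ratio of 6.38 (5.87 to 6.94). KO replicate 2 lay between the WT libraries, at 1.07 times their mean, while KO replicate 1 was at 6.80 times that mean. Muc16 was at 61.1 and 146 in the WT pair and 480 and 84.8 in the KO pair, a ratio of 5.66 (4.44 to 7.30). Its KO replicate 2 also lay between the WT libraries, an order of libraries that Lrrn4 and Bnc1 had as well.

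Lrrn4 was at 715 and 1303 in the WT pair and 3441 and 791 in the KO pair, a ratio of 4.35 (4.01 to 4.72). Gpm6a was at 1290 and 2120 in the WT pair and 3507 and 655 in the KO pair, a ratio of 5.35 (4.91 to 5.85). Gpm6a had the lowest KO replicate 2 value against WT of the 8, at 0.384 times the WT mean. Lrrn4 in the same library was at 0.784 times the WT mean, above WT replicate 1.

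The transcription factors differed in how far they moved. Wt1 was at 659 and 820 in the WT pair and 1168 and 418 in the KO pair, and its ratio of 2.79 between the KO libraries (2.49 to 3.14) was the smallest of the 8. Its interval lay below the intervals of the other 7 genes. Bnc1 was at 128 and 272 in the WT pair and 808 and 150 in the KO pair, a ratio of 5.40 (4.50 to 6.53), like that of Upk3b. Slurp1 was at the limit of detection outside KO replicate 1, with 0 and 1 reads in WT, 27 reads in KO replicate 1 and 0 in KO replicate 2. At a floor of 3 reads for a library without reads, it was at least 7.56-fold higher in KO replicate 1 than in KO replicate 2. The plot of levels by library shows the same library on top for every gene.

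**Figure D1:**
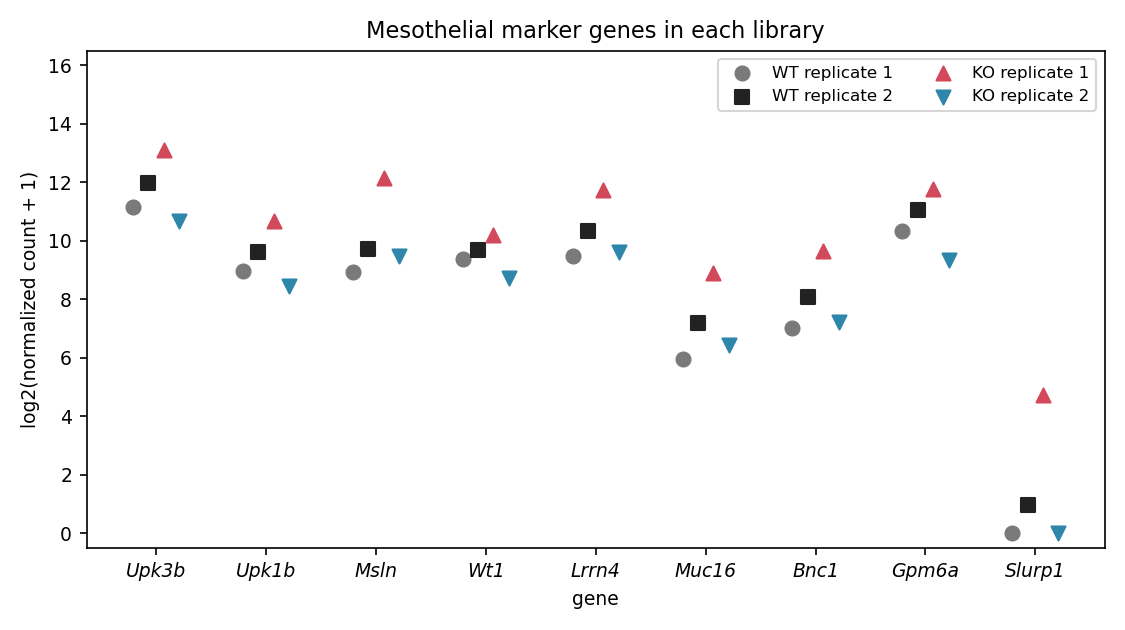
Level of each of the 9 mesothelial marker genes in each library, as log2(normalized count + 1) on the vertical axis, with 1 point per library. KO replicate 1 (triangles) is the highest point for every gene, and KO replicate 2 (inverted triangles) is the lowest for Upk3b, Upk1b, Wt1 and Gpm6a.

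Compared per kilobase of merged exons (GENCODE M21), the order of the genes was not the same in the 2 groups. In both WT libraries the order from the highest was Upk3b, Gpm6a, Upk1b, Lrrn4, Msln, Wt1, Bnc1 and Slurp1. Msln was behind Lrrn4 in both WT libraries, at 158 and 276 normalized counts per kilobase, and directly behind Upk3b in both KO libraries, at 1475 and 231. Gpm6a was directly behind Upk3b in WT, at 401 and 660, and behind Msln in KO, at 1091 and 204. Lrrn4 and Msln, neighbours in KO replicate 2 at 213 and 231, were closer to each other there than the WT libraries were for either gene. The identifier of Muc16 was not matched in that annotation, so no length was used for it.

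Between genotypes, 0 of the 8 genes tested had both KO libraries above the WT libraries and 0 had both below, where 38.9% and 40.6% of all genes tested did. The 8 are those that passed the filter of a mean normalized count of 10 or more in the 4 libraries, which Slurp1 did not. The KO minus WT difference on the log2(normalized count + 1) scale ran from -0.13 for Gpm6a to 1.48 for Msln, with a median of 0.55, against -0.01 over all 16710 genes tested. The gap between the KO libraries ran from 1.48 to 2.67 on that scale and was 1.80 to 20.6 times the size of the genotype difference of the same gene. In limma's moderated test across all genes 0 of the 8 passed an adjusted p of 0.05, also 0 at an unadjusted p under 0.05, and edgeR and DESeq2 gave 0 as well, where 46.7% of all genes passed limma's test in either direction. The genes were chosen on these values, so nothing is read from that count. The authors' deposited table gave adjusted p-values from 0.144 to 0.891 for the 9.

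The sign of the genotype difference turned with the KO library left out, which the choice of genes that differ between these libraries brings with it. Without KO replicate 1 the median difference was -0.57, and without KO replicate 2 it was 1.69. Limma called 0 higher and 1 lower of the 8 without KO replicate 1 (17.0% and 20.6% of all genes), and 3 higher and 0 lower without KO replicate 2 (14.3% and 19.1%), in fits with a lone KO library that is assumed to vary like the WT pair. Nothing is read from these counts. Against the WT mean, KO replicate 1 was higher for 8 of 8 genes, by 0.67 (Wt1) to 2.82 (Msln), while KO replicate 2 was above it for Msln alone, by 0.15, and below it for the other 7, by down to -1.34 for Gpm6a. The WT libraries also differed from each other in one direction, with WT replicate 2 above WT replicate 1 for 8 of 8 genes. The median difference was 0.81 on the log2 scale, and 50.3% of all genes tested were higher in WT replicate 2.

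**Figure D2:**
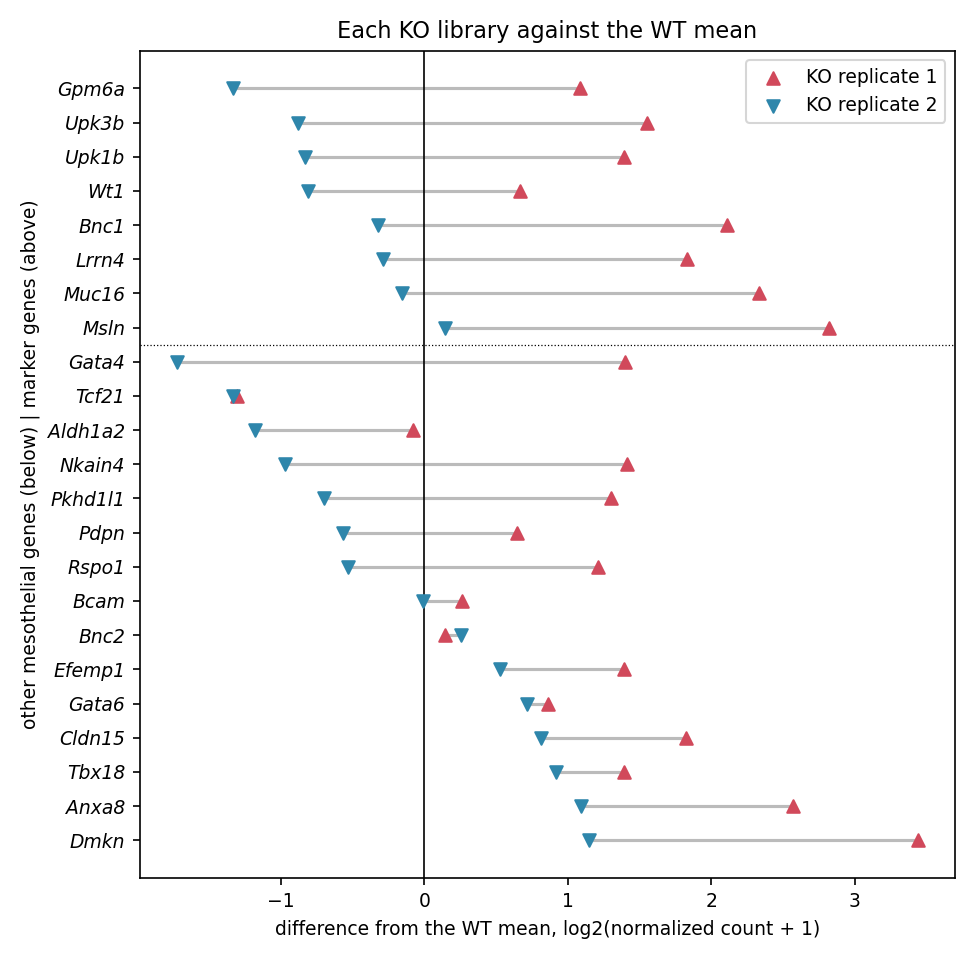
Difference of each KO library from the mean of the WT libraries, on the log2(normalized count + 1) scale, for the 8 marker genes above the filter (upper part) and 15 other mesothelial genes (lower part; Calb2, without KO reads, is not drawn). Lines join the KO libraries of a gene, and for 7 of the 8 marker genes they cross 0.

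The difference between the KO libraries was far from that of most genes. Among 13202 genes with a KO mean of 50 or more, 76 (0.576%) were more than 4-fold higher in KO replicate 1 and 0.326% were more than 4-fold higher in KO replicate 2. Of the first set, 7 were marker genes, out of 8 measured at that level, and Wt1 was the exception. This is the pattern by which the genes were chosen. The median KO replicate 1 minus KO replicate 2 difference was 2.42 for the 8 genes. Over the 13202 genes, 5% lay below -0.47, the median was -0.02 and 5% lay above 0.46.

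**Figure D3:**
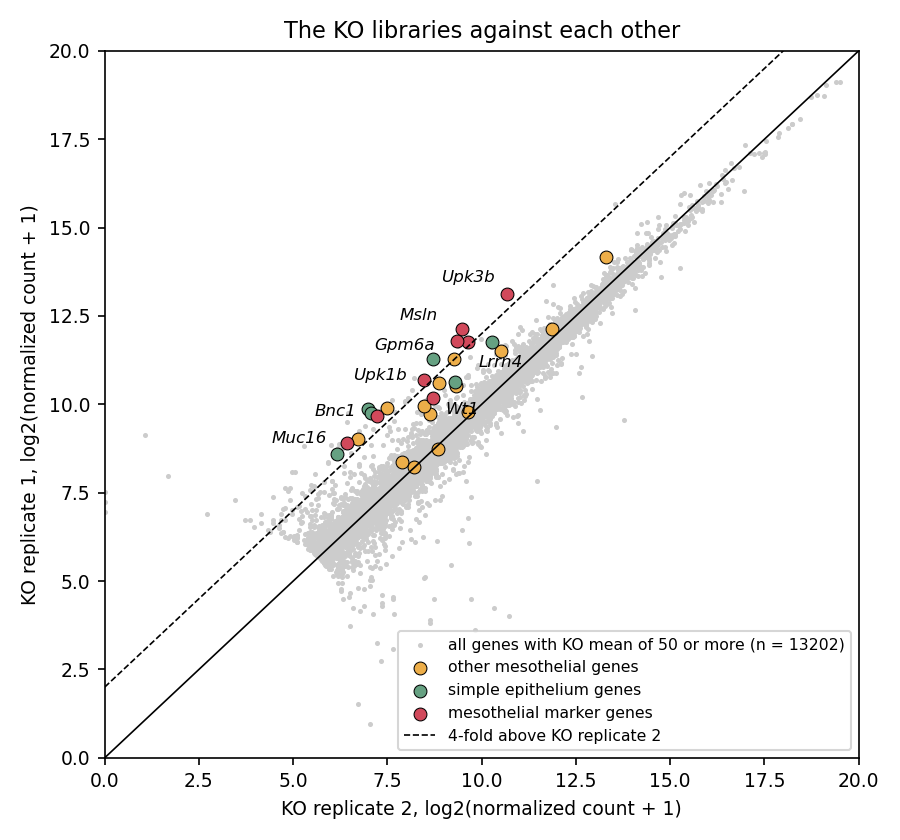
Level in KO replicate 1 (vertical) against KO replicate 2 (horizontal), both as log2(normalized count + 1), for 13202 genes with a KO mean of 50 or more. The solid line marks equal levels and the dashed line a 4-fold difference, which 7 of 8 marker genes (red), 3 of 14 other mesothelial genes (yellow) and 4 of 6 simple epithelium genes (green) exceed.

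A list of 16 further genes known from mesothelium was read next. It holds none of the 9, but it was also chosen with earlier results of these data known. In it 14 of 16 genes were higher in KO replicate 1 than in KO replicate 2, where 45.5% of all genes tested were, with a median difference of 1.06. The count is not particular to mesothelium, as 10 of 10 fibroblast and progenitor genes and 12 of 12 simple epithelium genes were also higher in that library. Nkain4, which encodes a protein that interacts with the sodium pump, was at 267 and 466 in the WT pair and 943 and 180 in the KO pair, and Pkhd1l1, encoding a large membrane protein, was at 842 and 1192 in the WT pair and 2465 and 616 in the KO pair. Both had the same order of libraries as Upk3b. Rspo1, a secreted enhancer of Wnt signalling made by mesothelium, was at 566 and 803 in the WT pair and 1563 and 465 in the KO pair, again with KO libraries on either side of WT. Dmkn, encoding the secreted protein dermokine, was at 42.8 and 50.2 in the WT pair and 513 and 104 in the KO pair. Its gap between the KO libraries was 4.94-fold (3.96 to 6.22), but both KO libraries were above both WT libraries.

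Not all of that list moved with the 9 markers. Bcam, a laminin receptor, was at 3588 and 3899 in the WT pair and 4481 and 3715 in the KO pair, and Bnc2, the paralog of Bnc1, was at 435 and 338 in the WT pair and 424 and 457 in the KO pair. The KO libraries were close to each other for Bnc2, in contrast to the 5.40-fold gap of Bnc1. Gata6, a transcription factor of several mesodermal tissues, was at 514 and 451 in the WT pair and 875 and 791 in the KO pair. Here the genotype groups did not overlap and the libraries of a group lay close together.

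In limma's test of KO against WT across all genes, 4 of the 16 rose, 2 fell and 10 did not pass, with a median of 0.26. Of all genes tested 22.4% rose and 24.4% fell, so the share that rose was near that of all genes. Anxa8, a membrane-binding annexin, rose by 1.83 (SE 0.51, adjusted p = 0.0446), from 167 and 167 in WT to 993 and 356 in KO. Its difference was 1.09 without KO replicate 1 and 2.57 without KO replicate 2. Cldn15, a claudin, rose by 1.32 (SE 0.37, adjusted p = 0.0454), from 726 and 947 to 2936 and 1457. Tbx18 rose by 1.15 (SE 0.23, adjusted p = 0.0179), from 112 and 137 to 327 and 234, and Gata6 by 0.79 (SE 0.11, adjusted p = 0.00724). Tbx18 encodes a transcription factor of the embryonic mesothelium. Without WT replicate 1 or without WT replicate 2 none of these 4 passed limma's test (1 and 2 of the 16 genes were higher at an unadjusted p under 0.05), in fits with fewer degrees of freedom where 7.21% and 3.14% of all genes rose and 9.84% and 6.35% fell. Without KO replicate 1 the difference of Cldn15 was 0.81 (adjusted p = 0.0508), and it also missed the threshold with no filter and with TMM scaling.

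The genes that fell were Calb2 and Tcf21. Calb2 encodes calretinin, a calcium-binding protein used to stain mesothelium in human tissue, and was at 172 and 199 in WT with 0 reads in both KO libraries. At a floor of 3 reads per KO library it was at least 60.3-fold lower in KO (adjusted p = 0.000764 by limma). Tcf21, a transcription factor of visceral fat progenitors and other mesenchyme, fell by 1.32 (SE 0.097, adjusted p = 0.00172), from 703 and 771 to 297 and 292. Without WT replicate 2 its difference was -1.25 (adjusted p = 0.0513). The male tract list moved with both genes, with a sum of 473 and 344 in KO, and its part in these falls was not tested. Efemp1, a matrix protein, was at 6671 and 7248 in WT and 18278 and 10001 in KO and did not pass (difference 0.96, adjusted p = 0.062), although DESeq2 gave it an adjusted p of 0.00171. Aldh1a2, an enzyme that makes retinoic acid, was at 778 and 1016 in the WT pair and 842 and 392 in the KO pair (adjusted p = 0.258).

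A list of 12 simple epithelium genes held keratins and membrane-cytoskeleton linkers that mesothelium shares with ducts and glands, and junction genes such as Epcam and the claudins that are typical of glands. Of the 12, 9 fell in KO and 0 rose, where 24.4% and 22.4% of all genes tested did. All 12 had the higher value in KO replicate 1 of the KO libraries, as 45.5% of all genes did, but for Cldn4 (1 and 0 reads), Cldn7 (2 and 1 reads), Epcam, Cdh1, Cldn3 and Muc1 the KO libraries were not apart beyond counting error. Fits without WT replicate 1 or without WT replicate 2 leave a lone WT library and fewer degrees of freedom, so no count of this list is read from them. In limma 0 rose at an unadjusted p under 0.05 too, and edgeR and DESeq2 gave 0 higher. The median difference of the list was -4.22. The male tract list summed to 1126640 and 1407170 in WT and to 473 and 344 in KO, and its part in these falls was not tested. Krt19, a keratin of simple epithelium, was at 8364 and 11854 in the WT pair and 2497 and 420 in the KO pair, and fell by 3.28 (SE 0.89, adjusted p = 0.0412 by limma, 0.0653 by edgeR). Without WT replicate 1 or 2 it did not pass (adjusted p = 0.209 and 0.267 by limma), and without KO replicate 2 its difference was -2.00. Krt7, a keratin of the same kind, was at 559 and 765 in the WT pair and 930 and 125 in the KO pair, an order of libraries like that of Upk3b. Epcam, an adhesion molecule of glandular epithelium and not of mesothelium, was at 3450 and 3498 in the WT pair and 12.2 and 8.93 in the KO pair. The KO libraries thus had little of Epcam, Cdh1 (19.7 and 12.3) and Cldn4 (0.94 and 0), while the keratins Krt7, Krt8, Krt18 and Krt19 were 5.52 to 7.44 times higher in KO replicate 1 than in KO replicate 2.

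Genes of the surface fluid and lubrication were read as a further list. Of 9 genes 8 were tested, and 2 rose (Aqp1 and Has3) and 0 fell in limma's test (also 0 lower at an unadjusted p under 0.05, and with edgeR and DESeq2), a share of higher genes near the 22.4% of all genes. The median KO minus WT difference was 0.54 and the median KO replicate 1 minus KO replicate 2 difference was 0.88. Has1, a hyaluronan synthase, was at 19.4 and 23.3 in the WT pair and 104 and 26.8 in the KO pair, and Slpi, a secreted protease inhibitor, at 208 and 190 in WT and 744 and 202 in KO. In both genes, which were picked after their values were seen, KO replicate 1 stood above the other 3 libraries. That library was the highest for 5 of the 9 genes of the list, as it was for 20.1% of all genes tested. Prg4 of the same list was highest in WT replicate 2, at 522 and 1275 in the WT pair and 988 and 430 in the KO pair. Aqp1, a water channel also abundant in vessels, was at 13768 and 13240 in the WT pair and 17340 and 22309 in the KO pair and rose by 0.54 (SE 0.15, adjusted p = 0.0415), with KO replicate 2 the higher. The synthase Has3 rose by 1.02 (SE 0.16, adjusted p = 0.00981), from 85.6 and 85.6 to 166 and 183. Without WT replicate 1 or without WT replicate 2 neither Aqp1 (adjusted p = 0.195 and 0.235 by limma) nor Has3 (0.0904 and 0.0995) passed, and without KO replicate 2 the difference of Aqp1 was 0.36 (adjusted p = 0.0952).

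Several of the 9 markers are also made outside mesothelium, so the defining genes of those cells were read in the same libraries. Of 8 urothelium genes, the summed level was 3032 and 3064 in WT and 60.9 and 98.2 in KO. Upk2, Upk3a and Krt5 had 0 reads in both KO libraries, and Upk3a had only 2 and 1 reads in WT. Upk1a, another uroplakin of the bladder lining, was at 372 and 188 in the WT pair and 2.81 and 4.46 in the KO pair. Upk3b and Upk1b were at 8866 and 1645 in KO replicate 1, the library with an Upk1a level of 2.81. The part of urothelium RNA in the levels of Upk3b and Upk1b was not tested in any library. The 12 stratified epithelium genes, the usual setting of Slurp1, summed to 3354 and 3569 in WT and to 2624 and 2007 in KO. Sbsn made up 1987 and 1709 of the KO sums, and Krt5, Krt13 and Dsg3 had 0 KO reads. In WT, Krt5 had 654 and 802 reads, but Krt13 had 1 and 0 and Dsg3 had 0 and 0. Krt14 of that list was at 292 and 372 in the WT pair and 457 and 63.6 in the KO pair.

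The 9 neuron genes, read for Gpm6a, summed to 5431 and 7286 in WT and to 453 and 498 in KO, mostly through Rbfox3 in WT (4781 and 6718) and Stmn2 in KO (262 and 388). Nefm had 0 reads in KO and 11 and 7 reads in WT. The part of neuron or male tract RNA in the level of Gpm6a was not tested. The 12 testis genes, read for Wt1 and Bnc1, summed to 1033 and 2140 in WT and to 405 and 911 in KO. Rhox5, Hsd3b6 and Insl3 were at 0 in KO, and had 0 and 4, 0 and 10, and 4 and 11 reads in WT. Sycp3 made up 263 and 672 of the KO sums. The part of testis RNA in the levels of Wt1 and Bnc1 was not tested. The 10 fibroblast and progenitor genes summed to 156160 and 146320 in WT and to 231427 and 178573 in KO. All 10 were higher in KO replicate 1 than in KO replicate 2, with a median difference of 0.37 against 2.42 for the markers. The widest gap was that of Dpp4, at 1939 and 2840 in the WT pair and 3177 and 1214 in the KO pair. Its ratio between the KO libraries was 2.62 (2.44 to 2.80), with the order of libraries of Upk3b. The rest of the list had ratios of 1.03 to 1.35. The part of fibroblast and progenitor RNA in the Wt1 level was not tested. Adipocyte genes were higher in KO replicate 1 than in KO replicate 2 for 2 of 12.

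Outside all lists, the library profile most like the mean of the markers belonged to Evpl, Atp6v0a4, Myrf, Gjb5, Prss12, Lgals7, Crym, AW551984, Tmem151a and Olfr1033. Likeness was the Euclidean distance between centred log2 levels over the 4 libraries, among 14031 genes, and with 4 libraries it describes these samples only. Evpl, encoding the junctional protein envoplakin, was nearest at a distance of 0.14, with 101 and 169 in WT and 430 and 79.2 in KO. Myrf, a membrane-bound transcription factor, was at 424 and 811 in the WT pair and 1742 and 347 in the KO pair (distance 0.20). Gjb5, a gap junction protein, was at 48.9 and 66.1 in the WT pair and 206 and 45.7 in the KO pair. Among the markers, Lrrn4 (0.23), Upk3b (0.27) and Upk1b (0.32) lay nearest to their own mean, and Wt1 (0.93) and Msln (0.94) farthest.

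In these 4 libraries the markers did not keep fixed proportions to each other. Each was expressed relative to the mean log2 level of the other 7, a comparison added after the data had been seen, as were the other references used for it, and is given with no test because 2 libraries against 2 cannot give an exact two-sided permutation p below 0.333. Msln, relative to the others, was at 0.03 and 0.01 in the WT pair and 1.27 and 0.83 in the KO pair, which is 2.04 times higher in KO. The KO libraries differed by 0.45 in this value, against 2.67 in the level itself. Muc16, Bnc1 and Lrrn4 were also higher in both KO libraries than in both WT libraries, by 1.49, 1.28 and 1.16 times. Gpm6a was at 1.64 and 1.53 in the WT pair and 0.86 and 0.70 in the KO pair, or 0.571 times as high. The KO minus WT difference was 1.03 for Msln and -0.81 for Gpm6a on the log2 scale, against a widest gap between libraries of one group of 0.45 and 0.16. For Muc16 it was 0.58 against 0.49, for Bnc1 0.36 against 0.30 and for Lrrn4 0.22 against 0.19. The differences of Muc16, Bnc1 and Lrrn4 were thus little more than the spread within a group. The WT libraries also held male tract transcripts, whose listed genes summed to 1126640 and 1407170 in WT against 473 and 344 in KO. The part of such RNA in these proportions was not tested.

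The 5 genes Msln, Muc16, Bnc1, Lrrn4 and Gpm6a were separated by genotype in the same direction with other references. These were Upk3b alone and the mean of Nkain4, Pkhd1l1, Rspo1 and Upk3b. The share of all genes so separated was not computed for these references, so nothing is read from the count. The references are not separate checks, since Upk3b is in each of them for these 5 genes. Nkain4, Pkhd1l1 and Rspo1 also lay close to the mean marker profile, at ranks 8, 12 and 17 of 14031 genes. Over the 3 references Msln was 2.04 to 2.27 times higher in KO, Muc16 1.49 to 1.73 times, Bnc1 1.28 to 1.51 times and Lrrn4 1.16 to 1.39 times, and Gpm6a was at 0.571 to 0.745 times its WT value. Upk3b, Upk1b and Wt1 were lower in KO relative to the other markers. For Wt1 the groups barely parted, at 0.53 and -0.036 in WT and -0.96 and -0.039 in KO. Its difference of -0.75 was smaller in size than its widest gap within a group, 0.92. Upk1b and Wt1 overlapped between genotypes with Upk3b alone as the reference. With the 4-gene reference Upk3b, Upk1b and Wt1 all overlapped. Upk3b, set against Nkain4, Pkhd1l1 and Rspo1 alone since a gene is left out of its own reference, then had a difference of 0.047 in place of -0.28. Values relative to the other markers must balance, so some have to be lower where others are higher. Among all other genes, expressed relative to the mean of the 8 markers, 1.13% had both KO libraries above both WT libraries and 19.2% had both below. This reference itself differed between the KO libraries, at 1.43 and -0.85 as centred log2 means of the markers. Genes that do not follow the markers are thereby spread apart in KO and tend to overlap WT, so nothing is read from these shares.

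**Figure D4:**
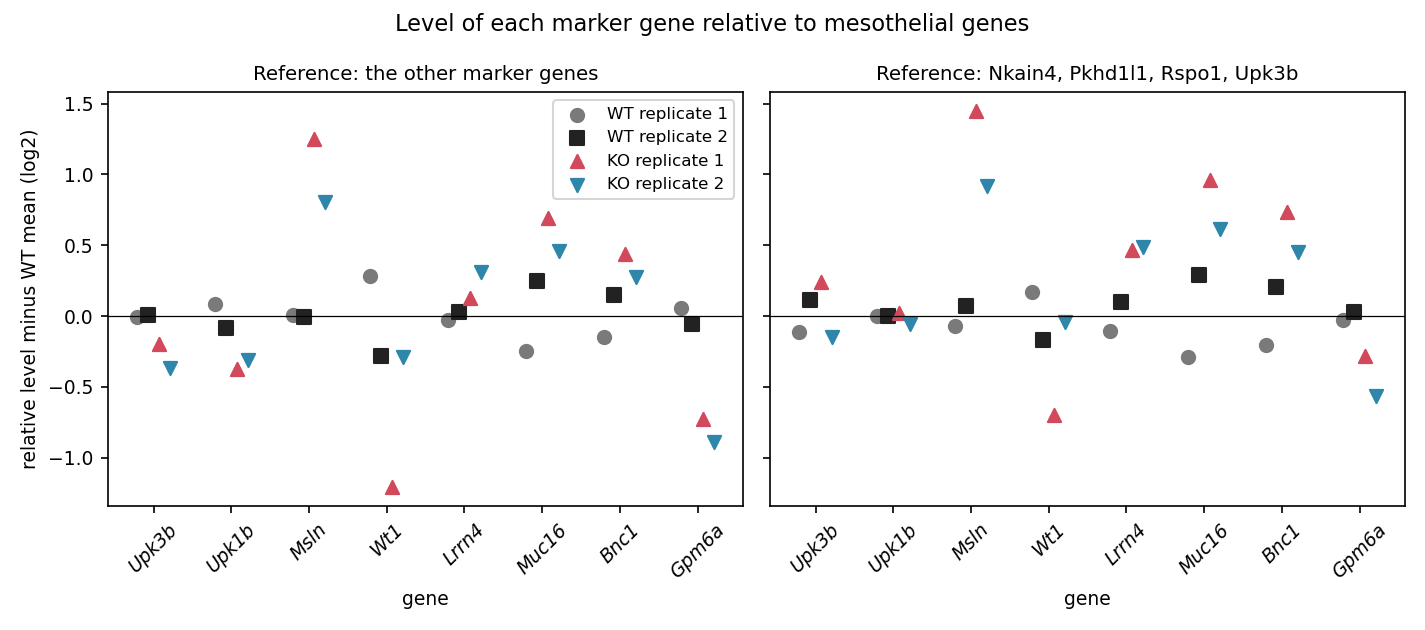
Level of each marker gene relative to the mean of the other marker genes (left) or to the mean of Nkain4, Pkhd1l1, Rspo1 and Upk3b (right), on a log2 scale with the WT mean at 0 and 1 point per library. In both panels Msln, Muc16, Bnc1 and Lrrn4 have both KO libraries above both WT libraries, and Gpm6a has both below.

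The genes lie on 8 chromosomes and only Wt1 and Lrrn4 share one. On GRCm38 (GENCODE M21) Upk3b spans chr5:136038496-136046487, Upk1b chr16:38773184-38800328, Msln chr17:25748613-25754378, Wt1 chr2:105126529-105173616, Lrrn4 chr2:132868305-132880891, Bnc1 chr7:81966672-81992292, Gpm6a chr8:54954843-55060871 and Slurp1 chr15:74724318-74728034. The counts are totals over each gene's exons. Bnc1 is overlapped by the antisense gene 4833418N17Rik and Slurp1 by Them6 on the other strand, and Gpm6a by Gm45262, Gm45263, Gm45264, Gm45265 and A230085B16Rik on its own strand. No source used here says whether the counting used strand, and on the same strand it would not help, so the reads of these overlaps cannot be told apart and the values are uncertain to that extent.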

How the data were processed

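Total RNA of epididymal fat in 4 samples was made into single-read TruSeq libraries, per the labels' protocols. Build GRCm38 and the tools HTSeq 0.5.3, TopHat2 2.0.10 and DESeq2 1.4.5 are named in the submitters' processing notes. The authors deposited a signal per gene, the normalized count (reads divided by a size factor), and a comparison table with log2 fold changes, a score (the test statistic), p-values and adjusted p-values. Whole reads were recovered from the normalized counts (100% of values whole within 0.01). Replicates differed beyond sampling noise (chi-square per degree of freedom 49.0 in WT and 34.7 in KO), so they are separate libraries.

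The test was limma 3.58.1 in R 4.3.3, run with a trend over intensity on log2 values after adding 1 to the normalized count. It took genes averaging 10 or more, with a threshold of 0.05 on Benjamini-Hochberg adjusted p-values. Changes of low genes are understated by the pseudocount. The steps were tested on simulated data. edgeR 4.0.16 and DESeq2 1.42.0 were run on the recovered reads. Intervals are exact binomial, and they and the floor of 3 reads cover counting error only.

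The members and lists were chosen with earlier results of these data known. Named were all 9 members, every gene of the other mesothelial list that passed and up to 6 more by level, up to 3 genes by level for each further list, and 10 genes by profile. Outside that rule, Dmkn, Nkain4, Bnc2, Has1, Has3, Slpi, Prg4 and Dpp4 were picked after their values were seen. So were Krt7, Krt18, Epcam, Cdh1, Cldn4, Krt14 and Upk1a, and genes named for having no reads. Per-kilobase levels used merged exons of GENCODE M21 for 8 members. The paralog, Schwann cell, smooth muscle, macrophage and B cell lists were computed and had 0 genes more than 4-fold higher in KO replicate 1 than in KO replicate 2. Also tried were TMM scaling, pseudocounts of 5 and 0.5, a minimum mean of 50, testing without a filter, the replicate number as a block and each library left out.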

Additional observations from a re-analysis of the deposited data

How the results depend on the processing

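The median difference of the markers between genotypes depended on the libraries. It was 0.55 with all 4 and ran from -0.57 to 1.69 with each library left out, and edgeR and DESeq2 gave 0.89. With edgeR and DESeq2 the differences of Wt1 (0.09 in both) and Gpm6a (0.28 in both) were above 0, while limma gave -0.07 and -0.13. The gap between the KO libraries stayed between -2.45 and -2.40 under both pseudocounts and TMM scaling, as KO replicate 2 minus KO replicate 1. Among the other mesothelial genes the numbers higher and lower, 4 and 2, ran from 0 to 9 and from 1 to 3 with each library left out. Over all genes 3735 and 4074 became 524 to 2846 and 1061 to 3434, in fits with fewer degrees of freedom that assume that the lone library varies like the other group. Relative to Nkain4, Pkhd1l1 and Rspo1, the KO minus WT value of Upk3b was 0.047. With the replicate number as a block 2737 genes were higher and 3339 lower, and 3 and 2 of the other mesothelial genes, with Cldn15, Aqp1 and Krt19 no longer passing. Same-numbered libraries deviated with a correlation of -0.00904 over genes, so the numbers were not taken as pairs. Slurp1, with 28 reads in all, is limited by depth.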

Other observations

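Immune genes outside the lists also differed between the KO libraries. H2-D1, a class I histocompatibility gene with close paralogs, so that its value is uncertain, was at 23159 and 29372 in the WT pair and 51591 and 11791 in the KO pair. H2-Q7, of the same family, was at 292 and 1040 in the WT pair and 727 and 84.8 in the KO pair, and H2-Ea-ps, a class II pseudogene, was at 71.3 and 52.1 in the WT pair and 149 and 0 in the KO pair. The immunoglobulin heavy chain gene Ighg2b was at 626 and 156 in the WT pair and 555 and 1.12 in the KO pair, the last being 1 read. The B cell list, by contrast, had a median KO replicate 1 minus KO replicate 2 difference of 0.16. These genes were picked after their values were seen. The strain of each library is labelled only as a mixed background.

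Of the 76 genes more than 4-fold higher in KO replicate 1 than in KO replicate 2, 61 were in none of the lists. They included Gata5 (150 and 245 in WT, 186 and 27.9 in KO), Wnt2b (481 and 787 in WT, 1165 and 263 in KO), Crb2 (152 and 214 in WT, 434 and 71.4 in KO) and Bst1 (149 and 354 in WT, 1108 and 194 in KO), also picked after their values were seen.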
